A study of Mus musculus with 2 samples.

Results

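The junction genes of a tumour, 57 claudins, cadherins and other components of tight and adherens junctions, were compared between 1 treated and 1 control library. They were chosen by name among the 34259 genes with whole-number counts, by a rule that uses no values but was drawn up with earlier results of these data known. All claudins and cadherins named by a number were taken except Cldn5 and Cdh5, genes of vessel walls, together with the Tjp scaffolds, Ocln, Epcam, F11r, Marveld2, Marveld3, Cgn, Ctnna1, Ctnnb1, Ctnnd1, Nectin1 and Nectin2. The tumours were grown from 4T1, a mouse mammary carcinoma line that forms metastatic tumours in mice. The treated tumour was taken after 3 injections of a compound that degrades a protein of the autophagy machinery, and the other tumour is labelled only as control. The target of the degrader, its dose, what the control animal received, and the strain, age and number of mice behind each tumour are not given here by the labels. The treated tumour carries the label batch 1 and the other batch 2, so treatment, batch and the difference between any 2 tumours cannot be told apart. Each group is 1 library, so there is no replicate spread and no test, and every value below compares these libraries only.

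Tight junctions seal the space between epithelial cells near their apical border. Claudins form the strands of the seal and set which ions pass, occludin and its relatives of the MARVEL family sit in the same strands, and the scaffold proteins encoded by Tjp genes tie the strands to actin. Adherens junctions lie below them and are built by cadherins, which bind cadherins of the next cell and hold actin through catenins. In mammary gland the luminal cells carry claudins and E-cadherin, whereas stratified epidermis has its own mixture with much claudin-1 and P-cadherin.

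Most junction genes with enough counts differed by less than 2-fold between the tumours, and claudin-1 (Cldn1) was the one past that limit. The libraries held 3824323 counts in the treated tumour and 2252214 in the control, where 1 count is worth 0.259 and 0.449 CPM. CPM are counts scaled to a common library total, with composition corrected by the TMM method. Of the 57 genes, 20 reached a mean of 10 CPM over both libraries. Of these, 1 was at least 2-fold higher in the treated tumour on the log2 scale after adding 1 CPM, against 4.23% of all 8865 genes that reached that mean. None was at least 2-fold lower, against 2.50% of all genes. With so few members, 1 gene of 20 is a share near that of all genes. At a 1.5-fold limit, 3 genes were higher, Cldn1, Cldn3 and Epcam, against 12.8% of all genes, and 2 were lower, Tjp1 and Cdh11, against 9.02%. The median log2 ratio, treated over control, was -0.03 over the 20 genes and 0.03 over all genes. Summed over all 57 genes, the level was 2558 CPM in the treated tumour and 2370 CPM in the control, a ratio of 1.08 (1.04 to 1.12). Epcam alone, at 683 CPM in the treated tumour and 442 CPM in the control, differed by more than these sums did. The ratio of the sums therefore does not describe a rise shared by the genes. Here and below the bracketed range after a ratio is its exact 95% interval for counting error, which leaves out how tumours vary.

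**Figure D1:**
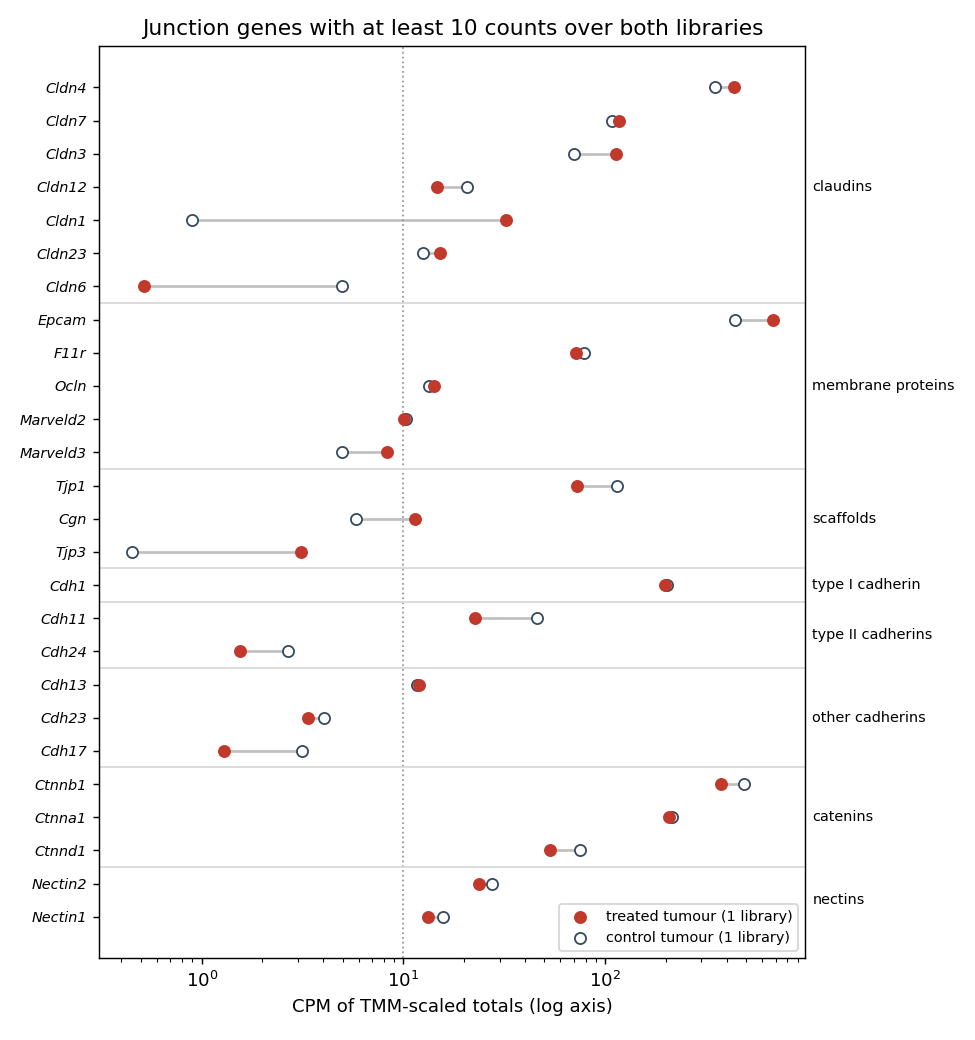
Level of 26 of the 27 junction genes with at least 10 counts over both libraries, in CPM on a log axis, with filled points for the treated and open points for the control tumour (1 library each), grouped by role. The dotted line marks 10 CPM. Most pairs of points lie close together, whereas Cldn1 lies at 32.3 CPM in the treated tumour and 0.897 CPM in the control.

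Claudin-1 is the main claudin of the epidermal barrier. Cldn1 (ENSMUSG00000022512, mm10 chromosome 16, 26356642 to 26371841, minus strand) had 125 counts in the treated tumour and 2 in the control, or 32.3 and 0.897 CPM. The treated level was 36.0-fold the control level (9.77 to 301). It reached the mean of 10 CPM through the treated library alone. Cldn1 made up 4.42% of all claudin counts in the treated tumour (exact Clopper-Pearson interval 3.69% to 5.24%) and 0.157% in the control tumour (0.0190% to 0.566%). None of the exons of Cldn1 overlaps another annotated gene, so its reads are not shared in that way.

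The claudins of simple and mammary epithelium differed less. Cldn4, the most abundant claudin by counts per kilobase of exon here, had 1677 counts in the treated tumour and 779 in the control, or 434 and 350 CPM, a ratio of 1.24 (1.14 to 1.35). Cldn3, which lies 39.3 kb from Cldn4 on chromosome 5, had 437 and 157 counts, or 113 and 70.4 CPM, a ratio of 1.60 (1.33 to 1.94). Cldn7, a claudin of lateral membranes that binds EpCAM, had 451 and 242 counts, or 117 and 109 CPM, a ratio of 1.07 (0.917 to 1.26). Cldn3 and Cldn4 were thus higher in the treated tumour beyond counting error, though below 2-fold, while the interval of Cldn7 included 1. Cldn4 held 59.3% of claudin counts in the treated tumour and 61.1% in the control, with intervals of 57.4% to 61.1% and 58.4% to 63.8% that overlap.

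Among the rarer claudins, Cldn12 had 57 counts in the treated tumour and 46 in the control, a ratio of 0.714 (0.476 to 1.08). Cldn23 had 59 and 28 counts, a ratio of 1.21 (0.763 to 1.98). Both intervals include 1, so no difference was detectable at this depth. Cldn6, a claudin of embryonic epithelium that is silent in most adult tissue, had 2 counts in the treated tumour and 11 in the control, a ratio of 0.105 (0.0113 to 0.480). It stayed below 10 CPM in both tumours, as did its neighbour Cldn9, which had 3 and 0 counts and whose annotated end lies 0.138 kb away. The other 13 claudins had fewer than 10 counts over both libraries, and 6 of the 21 claudins had none in either. A gene with 0 counts may still reach 0.776 CPM in the treated tumour and 1.35 CPM in the control, the level of 3 counts.

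To set the promoters of the highest-ratio claudin and of the most abundant members per kilobase of exon side by side, the 250 bases before the start of Cldn1, Cldn4 and Epcam are shown from RefSeq on GRCm38.p6 (mm10), read 5′ to 3′ on the strand of the gene. Capitals mark CAGGTG or its reverse complement CACCTG, the E-box letters that repressors of the Snail and ZEB families bind.
Cldn1, minus strand, chr16:26371840-26372089: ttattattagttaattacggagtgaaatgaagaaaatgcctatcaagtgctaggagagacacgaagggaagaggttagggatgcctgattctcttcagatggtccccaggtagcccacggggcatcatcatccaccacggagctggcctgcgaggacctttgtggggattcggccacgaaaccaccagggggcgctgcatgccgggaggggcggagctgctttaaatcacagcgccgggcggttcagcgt
Cldn4, minus strand, chr5:134946935-134947184: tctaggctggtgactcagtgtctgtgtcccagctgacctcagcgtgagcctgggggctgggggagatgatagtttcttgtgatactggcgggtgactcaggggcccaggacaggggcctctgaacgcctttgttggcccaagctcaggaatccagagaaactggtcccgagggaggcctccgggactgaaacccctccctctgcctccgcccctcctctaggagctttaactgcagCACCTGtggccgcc
Epcam, plus strand, chr17:87635729-87635978: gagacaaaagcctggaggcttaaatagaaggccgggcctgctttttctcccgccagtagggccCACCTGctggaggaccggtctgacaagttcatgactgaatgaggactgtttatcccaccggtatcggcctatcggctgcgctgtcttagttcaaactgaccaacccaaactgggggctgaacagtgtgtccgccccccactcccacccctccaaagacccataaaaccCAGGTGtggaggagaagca
The Cldn1 window holds no such match, the Cldn4 window holds 1 at position -14 from the start, and the Epcam window holds 2, at -187 and -19. Among the 40 of 57 members with an entry, 7 promoters held a match on either strand, or 17.5%, against 17.1% of 27025 promoters with 1 window per gene. The letters AACNNGTT, the core bound by grainyhead-like factors of epithelium, were found in 1 of the 40, that of Cgn, against 3.63% of all promoters. No AACNNGTT lies in the windows shown, so the motifs do not overlap there, and a match is a run of letters, not a binding site. The G and C content was 55.6% for Cldn1, 62% for Cldn4 and 56.4% for Epcam, against a median of 52% over all promoters.

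Epcam encodes the epithelial adhesion molecule EpCAM, which is abundant on carcinoma cells and stabilises claudin-7. It had 2638 counts in the treated tumour and 985 in the control (chromosome 17, 87635979 to 87651129, plus strand), or 683 and 442 CPM. The ratio was 1.54 (1.43 to 1.66), higher beyond counting error and below 2-fold. Per kilobase of exon Epcam was the highest of the 57 genes in both tumours, at 311 CPM per kb in the treated tumour and 201 in the control, ahead of Cldn4 at 239 and 192 CPM per kb. These levels per length assume reads along the whole transcript, which the sources used here do not state. By CPM not set against length, Ctnnb1 at 487 CPM stood above Epcam in the control tumour.

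The other membrane proteins of the tight junction lay within counting error. Ocln, which encodes occludin, had 55 counts in the treated tumour and 30 in the control, a ratio of 1.06 (0.666 to 1.71). Marveld2, which encodes tricellulin at the corners where neighbouring cells meet, had 39 and 23 counts, a ratio of 0.978 (0.570 to 1.71). F11r, which encodes the immunoglobulin-like adhesion molecule JAM-A, had 278 and 176 counts, a ratio of 0.911 (0.751 to 1.11). These 3 intervals include 1. Marveld3, a relative of occludin below 10 CPM in both tumours, had 32 and 11 counts, a ratio of 1.68 (0.824 to 3.69).

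The scaffolds went in different directions. Tjp1 (ZO-1, chromosome 7, 65296165 to 65527781, minus strand), which links claudins to actin, had 279 counts in the treated tumour and 255 in the control, or 72.2 and 114 CPM. Its ratio was 0.631 (0.530 to 0.751), lower beyond counting error. Tjp3 (ZO-3), a scaffold of epithelial cells, had 12 counts in the treated tumour and 1 in the control, a ratio of 6.92 whose interval of 1.02 to 296 nearly reaches 1. Cgn, which encodes the scaffold cingulin, had 44 and 13 counts, a ratio of 1.95 (1.03 to 3.95). Tjp3 and Cgn stayed below a mean of 10 CPM and therefore outside the count of genes above.

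E-cadherin, the cadherin that holds epithelial cells together, did not differ detectably. Cdh1 (ENSMUSG00000000303, chromosome 8, 106603351 to 106670246, plus strand) had 769 counts in the treated tumour and 453 in the control, or 199 and 203 CPM, a ratio of 0.979 (0.870 to 1.10). Its neighbour Cdh3, which encodes P-cadherin of basal epidermal cells and lies 46.1 kb away, had 9 counts in the treated tumour and 0 in the control. Set against the level of 3 control counts, the observed Cdh3 level was at least 1.73-fold higher in the treated tumour, and the exact 95% counting interval of the ratio starts at 1.14. Cdh2, which encodes the N-cadherin of mesenchymal and neural cells, had 3 and 5 counts, too few to compare.

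Cadherin-11, a type II cadherin of fibroblasts and bone-forming cells, was lower beyond counting error. Cdh11 (chromosome 8, 102632095 to 102785642, minus strand) had 88 counts in the treated tumour and 103 in the control, or 22.8 and 46.2 CPM, a ratio of 0.493 (0.366 to 0.661). After adding 1 CPM its log2 ratio was -0.99, just short of the 2-fold limit, and it was the lowest of the 20 genes. Cdh13, which encodes the T-cadherin held in the membrane by a lipid anchor, had 46 and 26 counts, a ratio of 1.02 (0.618 to 1.72). Cdh17, Cdh23 and Cdh24 had between 10 and 22 counts over both libraries, and each interval included 1. Another 16 cadherins, Cdh2 and Cdh3 among them, had fewer than 10 counts, and 4 of the 22 cadherins had none in either tumour.

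All 3 catenins had ratios below 1, Ctnnb1 and Ctnnd1 beyond counting error and Ctnna1 within it. Ctnnb1 encodes beta-catenin, which joins cadherins to alpha-catenin and also carries Wnt signals to the nucleus. It had 1454 counts in the treated tumour and 1085 in the control (chromosome 9, 120929216 to 120960507, plus strand), or 376 and 487 CPM, a ratio of 0.773 (0.714 to 0.837). Ctnnd1, which encodes p120-catenin, the protein that keeps cadherins at the surface, had 207 and 168 counts, a ratio of 0.710 (0.577 to 0.876). Ctnna1, which encodes the alpha-catenin that binds actin, had 803 and 481 counts, a ratio of 0.963 (0.859 to 1.08). Of the exon length of Ctnnd1, 61.2% is shared with the annotated gene Gm28635 on the same strand, and 15.1% of that of Ctnnb1 with Ulk4 on the other strand and a microRNA gene, so how their reads were assigned is uncertain. The nectins, immunoglobulin-like molecules that start adherens junctions, had ratios of 0.870 (0.622 to 1.22) for Nectin2, with 92 and 61 counts, and 0.840 (0.536 to 1.33) for Nectin1, with 51 and 35 counts.

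**Figure D2:**
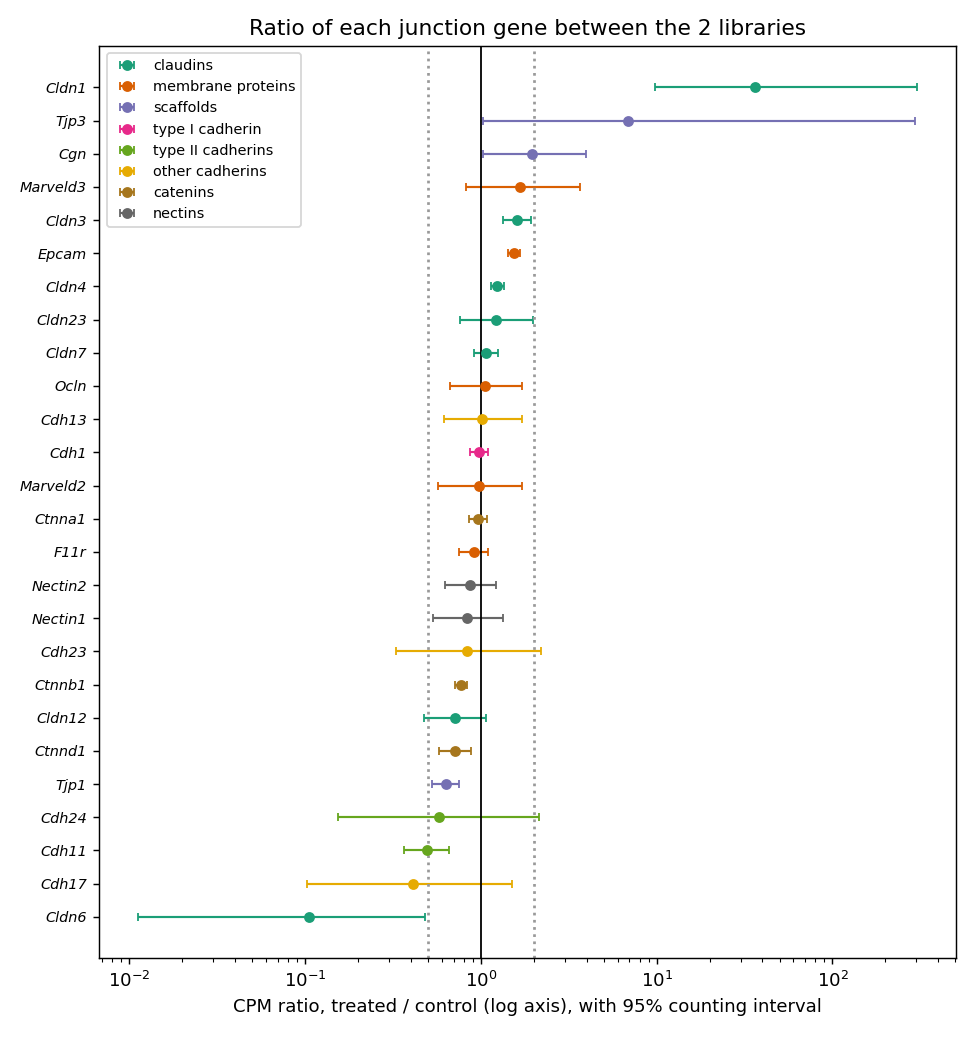
Ratio of CPM, treated over control, for 26 of the 27 junction genes with at least 10 counts, on a log axis, with bars for the 95% counting interval and colours for the role. The solid line marks a ratio of 1 and the dotted lines 2-fold either way. Cldn1 lies at 36.0, Cldn6 at 0.105, and most others lie between the dotted lines.

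Counting error was smaller than the difference for 11 of the 27 genes with at least 10 counts, 6 higher and 5 lower in the treated tumour. Among the 20 genes with a mean of 10 CPM these were 4 higher, Cldn1, Cldn3, Cldn4 and Epcam, and 4 lower, Ctnnb1, Ctnnd1, Tjp1 and Cdh11. Over all 8865 genes 22.0% had an interval above 1 and 18.9% an interval below 1, near the 4 of 20 in each direction found here, so these counts say nothing particular about junction genes. No share over all genes was computed for the minimum of 10 counts, so the 11 of 27 cannot be set against one.

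**Figure D3:**
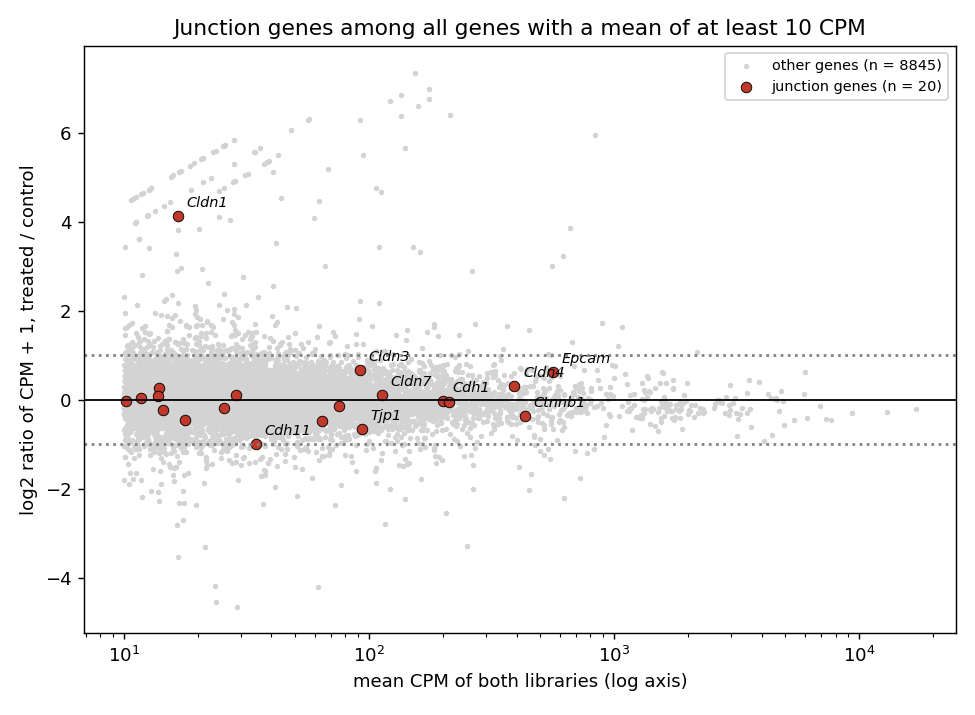
Log2 ratio of CPM + 1, treated over control, against the mean CPM of both libraries on a log axis, for the 20 junction genes (red) and 8845 other genes (grey) whose mean was 10 CPM or more. The dotted lines mark 2-fold. Cldn1 at 4.14 lies above the line, Cdh11 at -0.99 at the lower line, and the others lie within.

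Genes of stratified epidermis were higher in the treated library, in which Cldn1 was also higher. The 20 keratinocyte marker genes summed to 4171 CPM in the treated tumour and 502 CPM in the control. Of these genes 18 reached a mean of 10 CPM and were at least 2-fold higher, against 4.23% of all genes. However, 13 of the 18 reached it only through the treated library, so that their direction was set by the minimum. The other 5, Krt14, Krt10, Lypd3, Perp and Sfn, had 10 CPM in both tumours and ratios between 2.72 and 11.2. The basal keratin Krt5 had 1038 and 3 counts and its partner Krt14 had 3856 and 275. Dsc3, Krt15, Dsg3 and Ivl were at 0 in the control library. The second deposited sheet lists 3 genes of the control tumour at other values, Dsc3 at 89 counts rather than 0, Krt79 at 99 rather than 1 and Pof1b at 99 rather than 2, and leaves out Krtdap and Sbsn of the list. None of the 57 junction genes compared here has another value there. The 18 calls of keratinocyte genes do not use the second sheet and were not made again with it. At its values of 200 treated and 89 control counts, Dsc3 would be below 2-fold after scaling to the library totals. The part of epidermal tissue in the values of Cldn1 and the other claudins was not tested.

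Markers of luminal epithelium, which 4T1 cells express, were abundant in sum in both libraries, though not each of them. The 12 genes of that list summed to 5379 CPM in the treated tumour and 5500 CPM in the control, a ratio of 0.978 (0.956 to 1.000). Most of both sums came from Krt8, Krt18 and Wfdc2, so that ratio mainly describes these genes. The defining keratins of the list, Krt8 and Krt18, had ratios of 1.08 (1.04 to 1.12) and 1.13 (1.08 to 1.18). Of 11 that reached 10 CPM, 3 were at least 2-fold higher, against 4.23% of all genes. They were Muc1 at 13.3 (7.66 to 25.3), Rab25 at 4.44 (2.86 to 7.18) and Elf3 at 2.93 (1.60 to 5.79). Muc1 and Elf3 reached the mean through the treated library only. Rab25 is also in the list of other junction genes below, and Elf3 in that of regulators. Among the 11, 7 had intervals above 1 and 4 had intervals below 1, against 22.0% and 18.9% of all genes. Those 4 were Krt7 at 0.741 (0.686 to 0.800), Cd24a at 0.709 (0.639 to 0.787), Wfdc2 at 0.672 (0.637 to 0.709) and Lcn2 at 0.628 (0.540 to 0.730). Endothelial markers summed to 213 CPM in the treated tumour and 386 CPM in the control, with Pecam1 at a ratio of 0.661 (0.472 to 0.929). Of the 9 that reached a mean of 10 CPM, 8 had intervals below 1, against 18.9% of all genes. The other, Plvap, was at 1.25 (0.883 to 1.78). Below that mean, Vwf had a ratio of 3.46 from 18 treated and 3 control counts, with an interval just above 1. Tie1 had one of 1.73 from 21 and 7 counts, with an interval that includes 1. At least 2-fold lower were 4 of the 9 that reached 10 CPM, against 2.50% of all genes. Esam and Cldn5 among them reached it through the control library only. Cldn5 and Cdh5, left out of the junction genes by name, had ratios of 0.283 (0.172 to 0.456) and 0.315 (0.232 to 0.425). Fibroblast markers summed to 2122 and 2461 CPM, and the genes of the list went in different directions. Of 9 that reached 10 CPM, 5 had intervals below 1 and 2 above 1, against 18.9% and 22.0% of all genes. Among the 5 were the collagens Col1a1 at 0.802 (0.737 to 0.874) and Col1a2 at 0.703 (0.653 to 0.758). The 2 with intervals above 1 were Dcn at 2.42 (1.97 to 2.98), past 2-fold, and Lum at 1.27 (1.05 to 1.55). The part of vessel and connective tissue in the values of Tjp1, Cdh11 and the catenins was not tested. In bulk tissue, fewer cells of a type and less RNA per cell cannot be told apart.

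Neutrophil genes summed to 2422 CPM in the treated tumour and 845 CPM in the control, with ratios of 2.47 (2.29 to 2.66) for S100a8 and 3.29 (3.07 to 3.53) for S100a9. Of the 10 genes of the list, 5 reached a mean of 10 CPM and were at least 2-fold higher, against 4.23% of all genes. Cxcr2 and Csf3r, 2 of the 5, reached it through the treated library only. The granule genes Mmp8, Ngp, Camp and Ltf lay below that mean, with ratios of 1.30, 1.15, 0.937 and 0.329 whose intervals all include 1. Erythroid genes summed to 558 CPM in the treated tumour and 172 CPM in the control. Of these genes 4 reached a mean of 10 CPM, and all 4 were at least 2-fold higher, against 4.23% of all genes. Hba-a2 reached it through the treated library only. The globins Hba-a1 and Hba-a2, near-identical copies whose reads may be split between them, had ratios of 2.57 (1.89 to 3.55) and 4.35 (2.78 to 7.13). Macrophage genes summed to 1546 CPM in the treated tumour and 1481 CPM in the control. Of the 10, 3 were at least 2-fold higher, against 4.23% of all genes, Cd68 through the treated library only. Of their defining genes, Cd68 had a ratio of 2.57 (1.60 to 4.28) and Adgre1 one of 0.743 (0.532 to 1.04), an interval that includes 1. Muscle genes summed to 79.9 CPM in the treated tumour and 35.0 CPM in the control, with Acta1 at 61 and 10 counts and Ckm at 19 and 17 counts. Genes of Schwann cells and nerve summed to 61.1 CPM in the treated tumour and 92.0 CPM in the control. Ncmap alone gave 17.3 CPM in the treated tumour and 57.9 CPM in the control, and without it the sums were 43.7 and 34.1 CPM, higher in the treated tumour. Genes of sebaceous glands and hair follicles summed to 59.3 CPM in the treated tumour and 0.897 CPM in the control. Krt79 gave 55.6 CPM of the treated sum. With the second sheet, whose control value for Krt79 is 99 counts, the sums were 59.3 CPM in the treated tumour and 44.9 CPM in the control. Scd3 and Awat1 each had 4 counts in the treated tumour and 0 in the control.

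**Figure D4:**
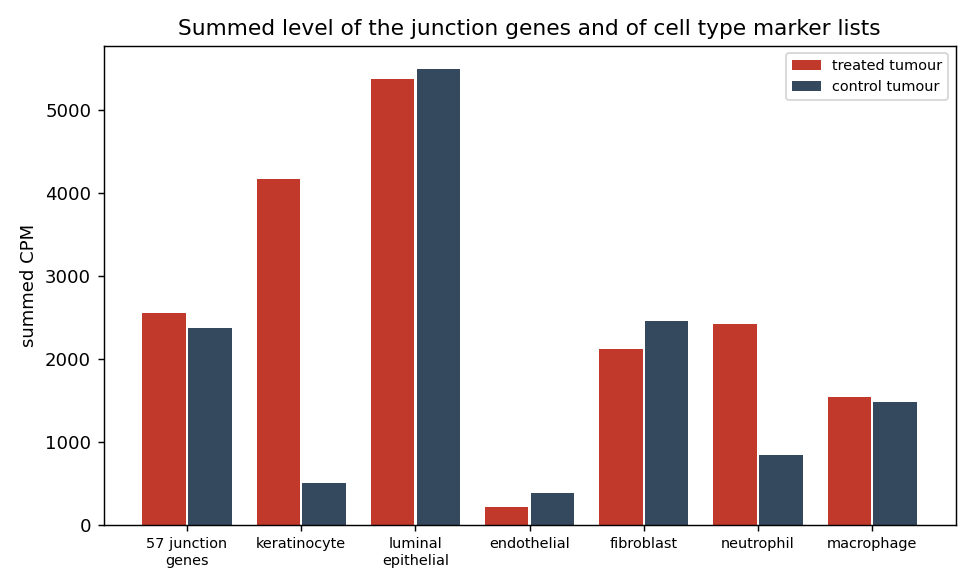
Summed CPM of the 57 junction genes and of 6 cell type marker lists, as bars for the treated and the control tumour (1 library each). The keratinocyte bar stands at 4171 CPM in the treated tumour and 502 CPM in the control, while the junction genes stand at 2558 and 2370 CPM and the luminal markers at 5379 and 5500 CPM.

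Beyond these genes, a list of 43 other polarity, scaffold and adhesion genes of cell junctions was read the same way. Of its genes, 30 reached 10 CPM, 2 were at least 2-fold higher and 1 lower, against 4.23% and 2.50% of all genes, so these few calls say nothing particular about the list. The median log2 ratio was -0.04, against 0.03 over all genes. Crb3, which encodes an apical polarity protein, had 84 counts in the treated tumour and 1 in the control, a ratio of 48.4 (8.46 to 1936). It reached a mean of 10 CPM only through the treated library. Rab25, a GTPase that recycles membrane proteins in epithelium, had 177 and 23 counts, a ratio of 4.44 (2.86 to 7.18). Amot, which encodes the tight-junction protein angiomotin that holds YAP in the cytoplasm, was lower, with 32 and 63 counts and a ratio of 0.293 (0.185 to 0.455), and reached that mean only through the control library. Magi1, a scaffold with PDZ domains, had 96 and 93 counts, a ratio of 0.595 (0.443 to 0.800). The genes of the list with the highest mean CPM, not set against length, were Ybx3, which encodes a Y-box protein that binds ZO-1, and Amotl1, a relative of angiomotin, with ratios of 1.02 (0.931 to 1.11) and 0.936 (0.814 to 1.08).

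Transcription factors, splicing factors, proteases and a protease inhibitor known to govern epithelial junctions formed another list of 24 genes. Of these, 13 reached 10 CPM, 2 were at least 2-fold higher and 2 lower, against the same 4.23% and 2.50% of all genes. Elf3 reached that mean only through the treated library, and Snai1 and Twist1 only through the control library. Klf4 and Elf3, factors of differentiating epithelium, had 179 and 27 counts, and 66 and 13 counts in the treated and the control tumour, with ratios of 3.82 (2.54 to 5.96) and 2.93 (1.60 to 5.79). Snai1 and Twist1, which repress Cdh1 in cells that lose epithelial character, had 34 and 55 counts, and 24 and 33 counts, with ratios of 0.356 (0.225 to 0.557) and 0.419 (0.237 to 0.731). Their relatives Snai2 and Twist2 had ratios above 1, at 1.92 (0.744 to 5.85) and 1.77 (0.987 to 3.33), from 20 and 6 counts, and 49 and 16 counts. Both lay below 10 CPM in the mean, and both intervals include 1. The ZEB repressors Zeb1 and Zeb2 had ratios of 0.718 (0.485 to 1.07) and 0.655 (0.537 to 0.800). Cdh1 itself stood at 199 CPM in the treated tumour and 203 CPM in the control. The highest in mean CPM were Tcf4, a basic helix-loop-helix factor, and Klf5, a factor of proliferating epithelium, with ratios of 0.624 (0.555 to 0.702) and 1.57 (1.31 to 1.88). Grhl1, a grainyhead-like factor of epidermis named after its values were seen, had 56 counts in the treated tumour and 1 in the control. Its ratio was 32.3 (5.56 to 1298), below 10 CPM in the mean. Grhl3, also below that mean, had 17 and 0 counts. Grhl2, the grainyhead-like factor that reached it, had 109 and 57 counts, a ratio of 1.10 (0.793 to 1.55) whose interval includes 1.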

How the data were processed

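Total RNA of 1 treated and 1 control 4T1 tumour was sequenced, from 1.5 µg of RNA with an AccuraCode kit, per the labels. The authors deposited counts per gene in 34290 rows, aligned to mm10 per the submitters' processing notes. The aligner, counting tool, use of strand and collapsing of molecular identifiers are not given in the sources used. The deposited table holds whole-number counts in 34259 rows. The first 31 rows, autophagy genes, are on another scale and were left out of totals and scaling. None is a junction gene. Another 7 columns of values, tied to no sample, were not used.

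Counts were scaled by TMM (trimming 30% by log ratio and 5% by abundance on both sides, with factors 1.01 and 0.989) and given as CPM. Genes were called by size, at least 2-fold on log2(CPM + 1) with a mean of at least 10 CPM. Ratios of single genes use CPM with no pseudocount, with exact conditional binomial 95% intervals. The floor for a gene at 0 was 3 counts per library. Members with at least 10 counts over both libraries are named. Cdh2, Cdh3 and Cldn9, which had fewer, were named after their values were seen. So were further marker genes such as Krt79, and further genes of the regulator list such as Grhl1 and Snai2. From each of the other junction list and the regulator list, the 2 genes with the highest mean CPM and the 2 largest log2 ratios each way were named among the measured genes, and from marker lists the first 2. Single values of 1 member and of some marker genes are not reported here. The members and lists were chosen with earlier results of these data known. Coordinates, exon lengths and overlaps come from GENCODE M21 on mm10, promoters from RefSeq. The scaling and the 2-fold rule were tested on simulated counts that held counting error only, with as many genes raised as lowered. That test cannot show how they behave between 2 real tumours. Alternatives were 3 other scalings, pseudocounts of 0.5 and 5, minimum means of 1 and 50 CPM or none, a 1.5-fold limit and the second sheet. Leaving out members that overlap another gene over more than 10% of their exons was added after the data were seen. Python 3.11.15, numpy 2.4.6, pandas 2.3.3 and scipy 1.17.1 were used.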

Additional observations from a re-analysis of the deposited data

How the results depend on the processing

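No paired analysis was possible because each group has 1 library. The median log2 ratio of the measured members stayed within 0.1 of -0.03 under every scaling, pseudocount, minimum and sheet tried, and was -0.00154 without Ctnnb1 and Ctnnd1. That of the other junction genes likewise stayed within 0.1 of -0.04. The count of members at least 2-fold lower was 0, and became 1, namely Cdh11, with a pseudocount of 0.5 or with totals that omit mitochondrial, haemoglobin and ribosomal protein genes. With a minimum of 1 CPM, 3 of 31 members were higher and 1 lower, and 4 of 39 other junction genes were higher, against 7.66% and 4.86% of 13860 genes. With no minimum, 5 of 57 members were higher and 2 lower, and 4 of 43 other junction genes were higher and 2 lower, against 3.96% and 2.26% of 34259 genes, many of them at 0. With a minimum of 50 CPM, 0 of 10 members and 0 of 11 other junction genes were called in either direction, since Cldn1, Crb3, Rab25 and Amot lie below it. Over all 3342 genes at that minimum 2.42% were higher and 2.30% lower, so 0 calls among so few genes say nothing particular. With a 1.5-fold limit, which 12.8% of all genes passed as higher and 9.02% as lower, 3 members were higher and 2 lower, and 4 other junction genes were higher and 5 lower. Of 162 values of the 27 named members under 6 alternatives, 161 stayed within their counting interval, and none changed sign. The exception was Cldn1, at a log2 ratio of 4.14 and of 2.66 with a pseudocount of 5. Depth limits the rare members: 30 of the 57 had fewer than 10 counts over both libraries.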
